A study of Mus musculus with 23 samples.

Results

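Hmox1, Srxn1, Gclm, Gclc, Txnrd1, Nqo1 and Prdx1 are 7 genes of the antioxidant response that is known to be controlled by the transcription factor NRF2. The members were chosen as every probe set whose platform annotation gives 1 of these symbols alone, which found 8 of 12422 tested probe sets and 6 of the 7 genes, among 8251 genes named in this way. Srxn1 and Nqo1 had 2 probe sets each. Both probe sets annotated to Prdx1, a peroxiredoxin, also list a second gene, so Prdx1 has no value here.

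The study asked how cells change their RNA early after serum is given back, at the level of RNA synthesis and at the level of the RNA pool. Primary mouse embryonic fibroblasts (age e14.5) were used, and the labels of all groups give the genotype C57/BLACK6, ATF1 -/+. Cells were starved for 48 h in 1% dialysed fetal bovine serum. They were then exposed for 2 h to 200 µM 4-thiouridine, a uridine analogue built into new RNA, with tritiated cytidine, at 1% serum (starved) or at 10% (treated). The starved groups therefore also carried the thiouridine. Each serum condition gave newly transcribed RNA (the thiolated RNA, separated on an organomercurial matrix), total RNA, and amplified total RNA. There were 4 arrays in each of the 6 groups except amplified starved, which had 3, for 23 Affymetrix arrays in all. Arrays are numbered in their titles as biological replicates, but nothing states that they came from separate embryos, so p-values may measure only the spread between these samples.

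NRF2 is held at low levels by KEAP1, which delivers it to a ubiquitin ligase. When that hold is loosened, NRF2 pairs with a small MAF protein on antioxidant response elements. The genes it reaches make glutathione, reduce thioredoxin and peroxiredoxins, and break down haem and quinones. BACH1 competes for the same elements and is best known for keeping Hmox1 low.

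Signals are deposited intensities after quantile normalization, which gives every array the same distribution, and log2 values are log2(signal + 16), which understates changes of dim probe sets. Median raw intensity per array ran from 7.3 to 75.2. The fibroblast markers Col1a1, Col1a2 and Col3a1 lay above the array median on all 23 arrays, as did the macrophage markers Csf1r and Cd68. Ptprc, a marker of all white blood cells, lay below the array median on 2 of 8 newly transcribed, 4 of 8 total and 3 of 7 amplified arrays, and the erythroid marker Alas2 on all 23. In bulk samples like these, fewer cells of a type and less RNA per cell cannot be told apart.

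Start regions that hold a match to the core of the antioxidant response element are shown for 3 of the measured genes, because these elements are the sequences by which NRF2 is known to act. RefSeq promoter windows of GRCm38.p6, 250 bases before to 50 after a start site, were matched by symbol for 5 of the 7 genes. Both strands were searched for the core antioxidant response element TGACNNNGC and for the AP-1 motif TGANTCA, which is its own reverse complement. No other form of either motif was searched. Matches to both can overlap. Of 32851 windows in the table, 12.4% held the first and 7.81% the second. Matches are in capitals in the lines that follow, each printed 5′ to 3′ on the gene's own strand.
Srxn1, plus strand, chr2:152105274-152105573: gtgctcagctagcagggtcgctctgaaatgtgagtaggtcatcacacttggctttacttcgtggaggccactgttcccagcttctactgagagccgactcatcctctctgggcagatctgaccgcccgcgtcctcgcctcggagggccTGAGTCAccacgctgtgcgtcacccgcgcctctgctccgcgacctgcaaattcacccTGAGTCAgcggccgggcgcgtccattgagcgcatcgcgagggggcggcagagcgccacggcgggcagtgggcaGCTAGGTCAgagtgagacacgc
Gclm, plus strand, chr3:122245307-122245606: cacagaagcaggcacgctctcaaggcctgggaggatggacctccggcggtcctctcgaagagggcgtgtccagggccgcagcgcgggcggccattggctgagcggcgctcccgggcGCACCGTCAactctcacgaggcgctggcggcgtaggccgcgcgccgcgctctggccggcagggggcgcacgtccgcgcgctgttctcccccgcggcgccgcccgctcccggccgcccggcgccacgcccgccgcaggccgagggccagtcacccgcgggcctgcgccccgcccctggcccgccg
Txnrd1, plus strand, chr10:82858956-82859255: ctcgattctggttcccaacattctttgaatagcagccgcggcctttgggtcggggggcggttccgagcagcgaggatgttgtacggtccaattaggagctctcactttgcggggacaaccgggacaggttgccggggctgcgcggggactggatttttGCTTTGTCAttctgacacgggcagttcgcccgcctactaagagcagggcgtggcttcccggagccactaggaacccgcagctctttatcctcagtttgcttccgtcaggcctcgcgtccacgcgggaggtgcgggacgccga
In Srxn1 the first base of each AP-1 match lay at -102 and -45 from the start site, and the core match, on the minus strand, began at 29 after it. In Gclm the core match began at -134, and in Txnrd1 at -92, both on the minus strand. The other 2 Txnrd1 windows and the Nqo1 window (minus strand, chr8:107403156-107403455) held no match to either motif. In Prdx1 a core match at -133 overlapped an AP-1 match at -131. A match is a description of the letters in the window and does not show that a factor bound there.

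Srxn1, which encodes sulfiredoxin, the enzyme that repairs over-oxidised peroxiredoxins, was higher in 10% than in 1% serum in all 3 kinds of RNA. The gene lies on chromosome 2 at 152105524 to 152111376 (GRCm38.p6). Probe set 102780_at read 99.0, 301.1, 171.1 and 119.6 for newly transcribed RNA on starved arrays 1 to 4. On treated arrays 1 to 4 it read 712.4, 833.4, 636.6 and 440.0, so every treated array was above every starved array. In total RNA the starved arrays read 83.3, 79.6, 72.5 and 107.2. The treated ones read 316.6, 334.5, 347.7 and 404.6, again without overlap and with little spread inside either group. The 3 starved arrays of amplified total RNA read 41.2, 104.8 and 56.2. The 4 treated ones read 128.9, 551.7, 364.0 and 254.0, and the groups were again apart although the treated arrays were widely spread.

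The log2 change of Srxn1 (102780_at) was 1.91 ± 0.34 (SE) in newly transcribed RNA, 1.86 ± 0.13 in total RNA and 1.93 ± 0.49 in amplified total RNA, which are 3.76-fold, 3.62-fold and 3.82-fold on that scale. By limma over all probe sets, Srxn1 rose in total RNA (adjusted p = 0.0055), where 0.121% of all probe sets were called. It missed the threshold in newly transcribed RNA (adjusted p = 0.24) and in amplified total RNA (adjusted p = 1). In those kinds of RNA the fits called 0% of all probe sets, with 800 and 175 at an unadjusted p below 0.05. Same-numbered starved and treated arrays deviated together for newly transcribed and for total RNA, so fits with the array number as a block are given for these. With the pairs, limma called Srxn1 in both, at an adjusted p of 0.026 in newly transcribed RNA, where 1.74% of all probe sets were called, and 0.0072 in total RNA, where 0.483% were. All 4 pairs rose in each, by 1.42 to 2.66 and by 1.74 to 2.04 on the log2 scale.

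The call in total RNA without pairs was made in each of the 8 fits that left out 1 array (adjusted p from 0.0073 to 0.048), but not with values as deposited (2.03, adjusted p = 0.09). The paired call in newly transcribed RNA held without pair 1 (adjusted p = 0.041) and was lost without pair 2 (0.13), pair 3 (0.17) or pair 4 (0.062). That in total RNA was lost without pair 3 (adjusted p = 0.08) or pair 4 (0.089). Fits leaving out pairs 1 to 4 in turn called 25, 1, 0 and 0 of all probe sets in newly transcribed RNA, against 216 with all pairs. In total RNA they called 8, 10, 0 and 0, against 60. With arrays scaled to 1 median both paired calls of Srxn1 were kept (adjusted p = 0.035 and 0.0025). With values as deposited both were lost (adjusted p = 0.2 and 0.21), and 0 of all probe sets were called. The second Srxn1 probe set, 161090_i_at, did not pass in any of the 3 kinds: its changes were 0.55 ± 0.26, 0.14 ± 0.20 and -0.47 ± 0.38. It was dim, below the median raw signal of the array on 19 of 23 arrays, and its suffix marks a set with fewer usable probes.

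**Figure D1:**
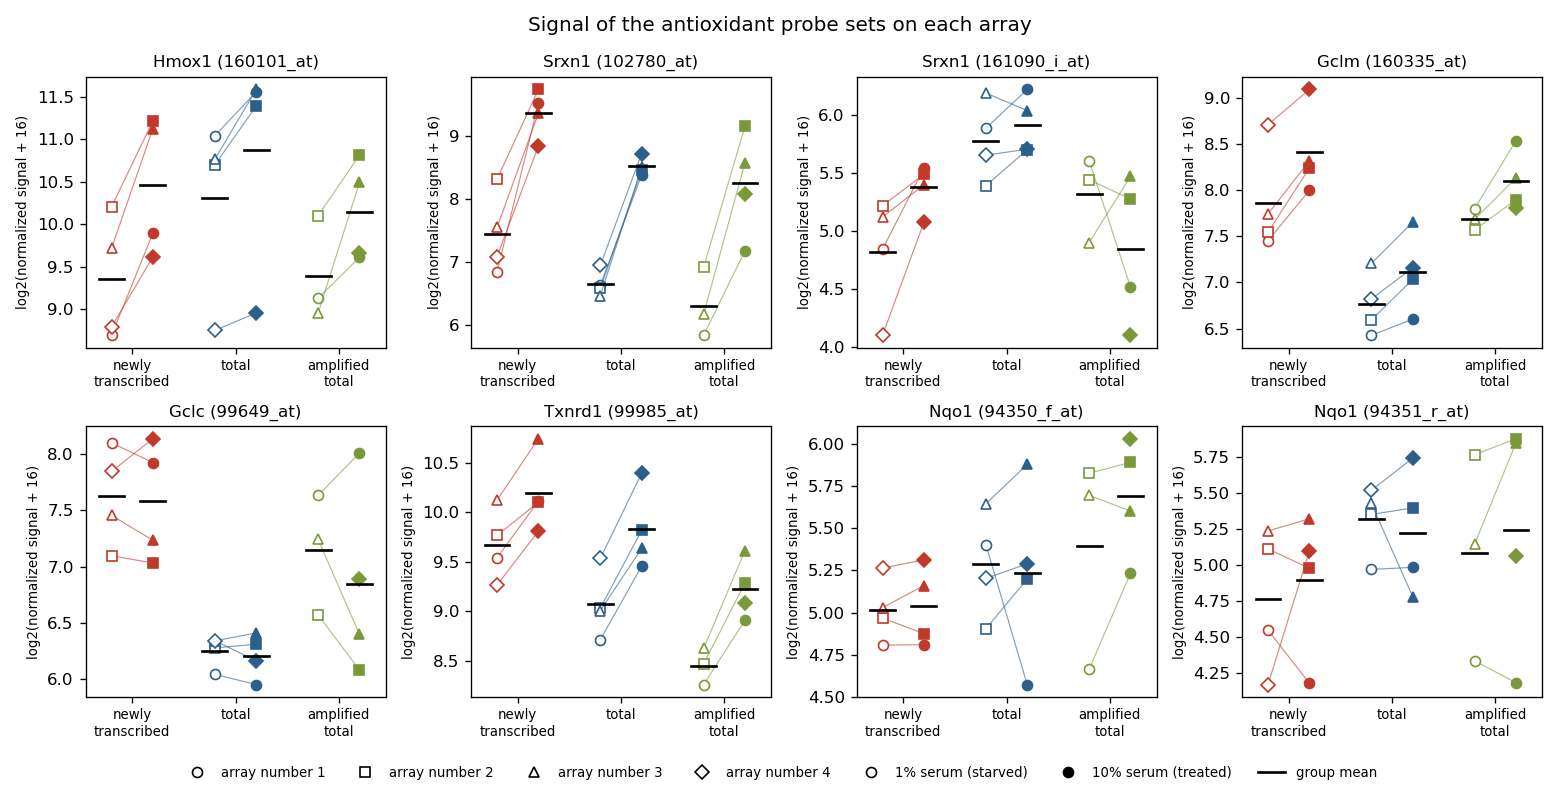
Each panel plots log2(normalized signal + 16) of 1 probe set on every array, by kind of RNA (horizontal axis), with starved arrays open and treated arrays filled, lines joining arrays of the same number and black bars at group means; vertical scales differ between panels. Srxn1 102780_at is the probe set whose treated arrays lie above all starved arrays in all 3 kinds of RNA, and the array numbered 4 of total RNA is the lowest for Hmox1 in both serum conditions.

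Hmox1 encodes haem oxygenase 1, which breaks down haem and is a well known target of both BACH1 and NRF2. The gene lies on chromosome 8 at 75093618 to 75100593. Starved arrays 1 to 4 of newly transcribed RNA read 397.2, 1164.7, 826.2 and 426.9. The treated arrays read 936.4, 2368.1, 2219.8 and 768.9. The groups overlapped, but each treated array was above the starved array of its own number, by 0.83 to 1.41 on the log2 scale. The change was 1.11 ± 0.49, a 2.16-fold difference, which missed the threshold without pairs (limma, adjusted p = 0.79). With the pairs its SE was 0.13 and Hmox1 rose (limma, adjusted p = 0.027). That call was lost in each fit without 1 pair (adjusted p = 0.083, 0.17, 0.18 and 0.062 for pairs 1 to 4) and with values as deposited (0.79, adjusted p = 0.2). Without 1 pair the change ran from 1.015 to 1.209, in fits that called 25, 1, 0 and 0 of all probe sets. The Hmox1 call was kept with arrays scaled to 1 median (1.15, adjusted p = 0.027).

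In total RNA, starved arrays read 2094.2, 1648.2, 1725.1 and 414.1 for Hmox1, and treated arrays 3005.4, 2672.4, 3065.6 and 480.3. The array numbered 4 was far below the others in both conditions. The change was 0.56 ± 0.71 without pairs (limma, adjusted p = 1) and 0.56 ± 0.13 with them (adjusted p = 0.22), so it did not pass either way, although all 4 pairs were higher after serum, by 0.21 to 0.82. Without pair 4 the paired change was 0.68 ± 0.13 (adjusted p = 0.37). Leaving out a single array of the pair moved the unpaired value to 0.04 (without the starved one) or 1.20 (without the treated one). Starved arrays of amplified total RNA read 544.0, 1082.9 and 480.1 and treated ones 765.6, 1785.8, 1424.9 and 794.0, with overlap and a change of 0.75 ± 0.42 (adjusted p = 1).

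Macrophages are a known site of haem oxygenase expression, and macrophage markers varied between arrays together with Hmox1 in some groups. The summed normalized signal of the 12 markers on newly transcribed arrays 1 to 4 was 3215, 5325, 3605 and 1774 in starved and 3063, 7694, 6276 and 3217 in treated cells. Arrays 2 and 3 were highest in both conditions, as they were for Hmox1. In total RNA the sum ran from 3129 to 7124 in starved and from 3093 to 7719 in treated cells, and the highest sum of each condition was on array 4, where Hmox1 was lowest. In amplified total RNA the sum ran from 3035 to 9533 in starved and from 3244 to 10368 in treated cells. There starved array 2 was highest for the sum and for Hmox1. Treated arrays 2 and 3 were highest for both, with sums of 8795 and 10368 and Hmox1 at 1786 and 1425. The lowest starved sum was on array 1, and the lowest starved Hmox1 signal on array 3. After serum 11 of 12 markers were higher in newly transcribed RNA, 12 of 12 in total RNA and 11 of 12 in amplified RNA, with median log2 changes of 0.25, 0.22 and 0.37 and 0 called by limma with or without pairs. Their part in the Hmox1 values was not tested.

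**Figure D2:**
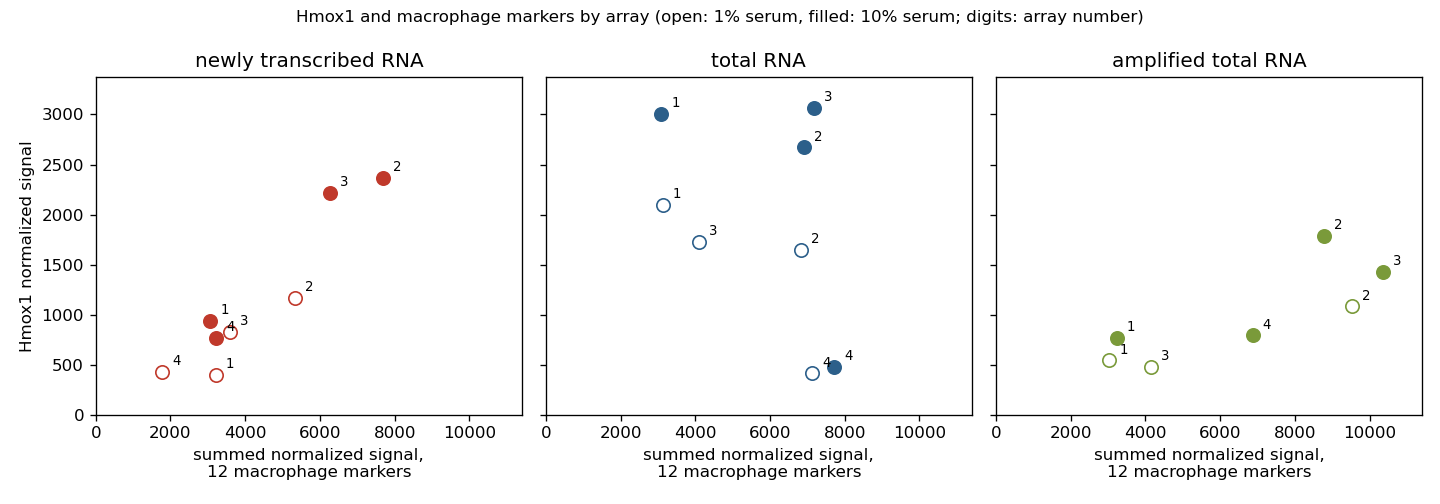
Each point is 1 array, with the summed normalized signal of 12 macrophage markers on the horizontal axis and the normalized Hmox1 signal on the vertical axis, open for 1% and filled for 10% serum, and labelled by array number. In newly transcribed RNA arrays 2 and 3 are high on both axes (sums of 7694 and 6276 in treated cells), while in total RNA the 2 arrays numbered 4 have the highest sums of their conditions, 7124 and 7719, and the lowest Hmox1 signals, 414.1 and 480.3.

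Txnrd1 encodes the cytosolic thioredoxin reductase, which uses NADPH to reduce thioredoxin, and lies on chromosome 10 at 82833951 to 82897724. In total RNA its starved arrays read 404.0, 507.7, 498.6 and 725.4, and its treated arrays 686.2, 887.0, 779.1 and 1331.7. The groups overlapped because the array numbered 4 was highest in both, while every pair was higher after serum, by 0.63 to 0.86. The change was 0.75 ± 0.24 without pairs (limma, adjusted p = 0.7) and 0.75 ± 0.09 with them, and with the pairs Txnrd1 rose (adjusted p = 0.043). This call was lost without any 1 of the pairs (adjusted p = 0.15, 0.14, 0.21 and 0.27 for pairs 1 to 4) and with values as deposited (1.15, adjusted p = 0.65). Without 1 pair the change ran from 0.718 to 0.797, in fits that called 8, 10, 0 and 0 of all probe sets. The Txnrd1 call was kept with arrays scaled to 1 median (0.81, adjusted p = 0.04).

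For newly transcribed RNA, Txnrd1 read 729.1, 855.4, 1099.4 and 599.4 in starved and 1092.2, 1082.2, 1698.5 and 881.8 in treated cells. These overlapped, with a change of 0.52 ± 0.25 (limma, adjusted p = 0.84) that was 0.52 ± 0.11 with pairs (adjusted p = 0.074), and 4 of 4 pairs were higher. With values as deposited, where the median change over all probe sets was -0.18, 2 of the 4 pairs were lower, at -0.25 and -0.02. The Txnrd1 change was then 0.20. With arrays scaled to 1 median it was 0.57 ± 0.13 with pairs (limma, adjusted p = 0.073). Amplified total RNA gave 290.5, 338.4 and 378.7 in starved and 464.8, 608.3, 767.0 and 525.9 in treated cells. There the groups were apart, at 0.77 ± 0.22 (adjusted p = 1).

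Glutathione synthesis starts with glutamate-cysteine ligase, whose catalytic subunit is encoded by Gclc and whose modifier subunit, which makes the enzyme more efficient, by Gclm. Gclm lies on chromosome 3 at 122245487 to 122267215 and Gclc on chromosome 9 at 77754535 to 77794489. Newly transcribed Gclm RNA read 159.4, 170.9, 198.4 and 403.4 in starved and 239.6, 286.5, 302.8 and 530.2 in treated cells. Starved array 4 was above 3 of the treated arrays, so the groups overlapped, while all 4 pairs were higher after serum. The change was 0.55 ± 0.34 without pairs (limma, adjusted p = 0.93) and 0.55 ± 0.11 with them (adjusted p = 0.07). With values as deposited, where the median change over all probe sets was -0.18, 2 of the 4 pairs were lower, at -0.39 and -0.27. The Gclm change was then 0.10. With arrays scaled to 1 median it was 0.44 ± 0.11 with pairs (limma, adjusted p = 0.085). In total RNA Gclm ran from 70.0 to 131.8 in starved and from 81.1 to 185.3 in treated cells, a change of 0.35 ± 0.10 with pairs (adjusted p = 0.3). Amplified total RNA gave 206.9, 173.8 and 189.6 in starved and 355.8, 222.6, 265.2 and 208.8 in treated cells, which were apart, at 0.41 ± 0.22 (adjusted p = 1).

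Gclc, the catalytic partner, had changes near 0 in newly transcribed and total RNA after normalization. Newly transcribed Gclc RNA read 258.4, 121.0, 159.5 and 214.0 in starved and 227.0, 114.9, 134.6 and 265.5 in treated cells. The ranges nearly coincided, and the change with pairs was -0.04 (95% confidence interval -0.35 to 0.27; limma, adjusted p = 0.9). With values as deposited it was -0.52 (limma without pairs, adjusted p = 0.74), with 3 of 4 pairs lower, where the median over all probe sets was -0.18. In total RNA it ran from 50.0 to 65.2 in starved and from 45.9 to 69.1 in treated cells, a change of -0.04 with an interval of -0.27 to 0.19 with pairs. In amplified total RNA the change was -0.30 and the groups overlapped. The difference between the subunits was not tested.

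Nqo1, a quinone reductase and classical NRF2 target on chromosome 8 at 107388225 to 107403205, was at the lower end of the arrays' range. Its probe sets 94350_f_at and 94351_r_at were below the array median on 20 and 21 of 23 arrays, with normalized signals of at most 49.5 and 42.8. Their suffixes mark a set shared within a sequence family and a set for which probe selection rules were relaxed. The changes were 0.02 and 0.13 in newly transcribed RNA, -0.05 and -0.09 in total RNA and 0.29 and 0.16 in amplified RNA, none called by limma. At these signals a change of Nqo1 could have been missed.

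Other values also moved by more than 1.5 times with values as deposited, and none of them was called. Hmox1 was then at 1.14 in total and 1.45 in amplified RNA, Gclm at 0.62 and 0.95, and Txnrd1 in amplified RNA at 1.39. The median over all probe sets was then 0.21 in total and 0.25 in amplified RNA.

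Over the 8 probe sets, the count with all treated arrays above all starved arrays was 1 in newly transcribed RNA (Srxn1), 1 in total RNA (Srxn1) and 3 in amplified RNA (Srxn1, Gclm and Txnrd1). The same held for 2.13%, 1.52% and 1.26% of all probe sets. Positive changes numbered 7, 5 and 6 of 8, with a median log2 change of 0.53, 0.24 and 0.35 against medians of 0.005, -0.015 and -0.008 over all probe sets. The 8 probe sets stand for 6 genes, which were chosen with earlier results of these data known. Those of Nqo1 and the second of Srxn1 were dim. A shift of the members as a group was not tested.

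**Figure D3:**
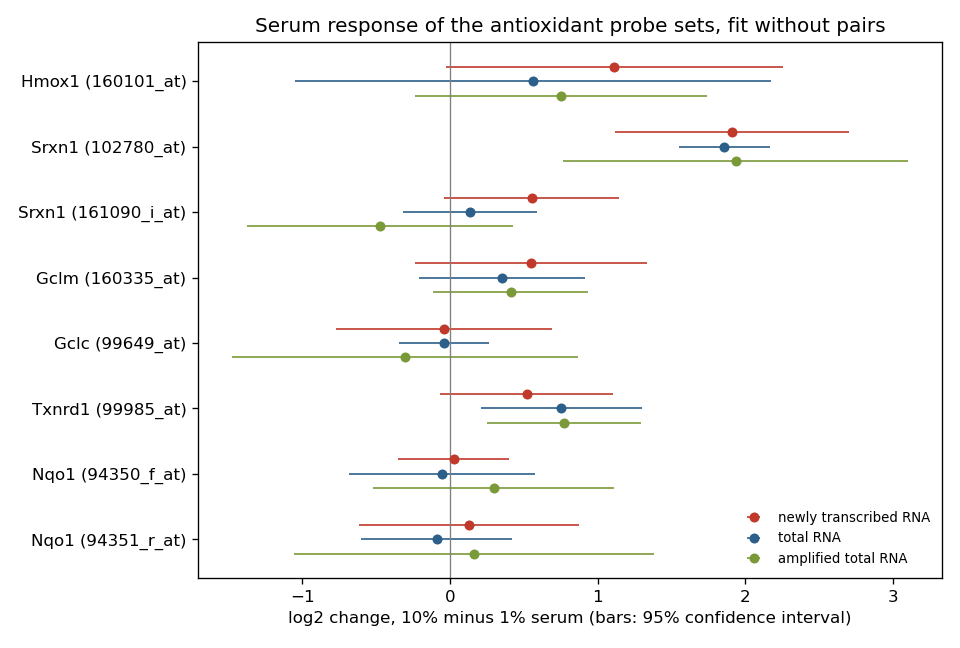
Points are log2 changes (10% minus 1% serum) of the 8 probe sets in newly transcribed, total and amplified total RNA, from fits without pairs, and bars are 95% confidence intervals. Srxn1 102780_at lies near 1.9 in all 3 kinds of RNA with the shortest bar in total RNA (1.55 to 2.16). The bars of Hmox1, Gclm, Gclc, Nqo1 and Srxn1 161090_i_at cross 0, as does that of Txnrd1 in newly transcribed RNA.

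Whether a gene's serum response differed between newly transcribed RNA and the RNA pool was tested as a difference of the responses. For Srxn1 (102780_at) the response in newly transcribed RNA minus that in total RNA was 0.05 ± 0.38, with a 95% interval of -0.76 to 0.86. For Hmox1 it was 0.55 ± 0.92 (interval -1.42 to 2.52). For Gclm and Txnrd1 it was 0.20 ± 0.44 and -0.24 ± 0.36. Against amplified total RNA the differences were -0.03 for Srxn1 (interval -1.36 to 1.31), 0.36 for Hmox1, 0.14 for Gclm and -0.25 for Txnrd1. Without pairs, limma called 0% of all probe sets in either test of differences, with 299 and 201 at an unadjusted p below 0.05, and every member had an adjusted p of 1. With the array number as a block, the difference from total RNA was 0.55 ± 0.19 for Hmox1 (interval 0.13 to 0.97, limma adjusted p = 0.36). For Srxn1 (102780_at) it was 0.05 ± 0.25 (interval -0.50 to 0.60), for Gclm 0.20 ± 0.14 and for Txnrd1 -0.24 ± 0.14. That fit also called 0 of all probe sets, with 1343 at an unadjusted p below 0.05. With values as deposited the Hmox1 difference was -0.35, where the median over all probe sets was -0.45. The unpaired intervals are wide, and the paired Hmox1 interval, which is not adjusted, lies above 0. A response of the same size in the different kinds of RNA was therefore not shown.

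Levels were then compared between kinds of RNA, with serum as an additive term, on the normalized scale that fixes the overall distribution. Srxn1 (102780_at) and Txnrd1 were higher in newly transcribed than in amplified total RNA, by 1.12 ± 0.30 (limma, adjusted p = 0.016) and 1.09 ± 0.17 (adjusted p = 0.00044) on the log2 scale. This comparison called 17.7% of all probe sets, so 2 of 8 is near the background. Both were called in all 15 fits without 1 array, and neither with values as deposited (1.45 and 1.58, adjusted p = 0.18 and 0.13). The dim Srxn1 probe set 161090_i_at differed by 0.06 ± 0.26 (adjusted p = 0.92) and did not pass. Gclc differed by 0.62 ± 0.29 (adjusted p = 0.18), Nqo1 94350_f_at by -0.53 ± 0.18 (0.063), Gclm by 0.25 and Hmox1 by 0.15, none of which passed in this fit. Gclc and Nqo1 94350_f_at passed with the array cluster as a block (adjusted p = 0.0034 and 0.035), and Nqo1 94350_f_at with arrays scaled to 1 median (adjusted p = 0.023). The clusters were drawn from these same values, and the fit with them called 3909 of all probe sets.

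Amplified total RNA and total RNA are told apart by the sample titles alone, since the labels' protocol names a linear amplification for all samples. Between them, 4 of 8 probe sets were called by limma, where 20.3% of all were. Gclm was higher in amplified RNA by 0.96 ± 0.17 (adjusted p = 0.0011) and Gclc by 0.76 ± 0.24 (adjusted p = 0.041). Txnrd1 was lower, at -0.61 ± 0.16 (adjusted p = 0.016), and so was Srxn1 161090_i_at, at -0.79 ± 0.22 (adjusted p = 0.02). The brighter Srxn1 probe set 102780_at was at -0.305 ± 0.241 (adjusted p = 0.42) and did not pass. The Gclc call was made in 3 of 15 fits without 1 array, and was lost with the replicate block (0.76 ± 0.28, adjusted p = 0.087) and with a pseudocount of 64. Same-numbered total and amplified arrays deviated together only weakly (r from 0.07 to 0.31), so that block has little basis here. With arrays scaled to 1 median the Txnrd1 difference was -0.27 (adjusted p = 0.39), and with values as deposited only Srxn1 161090_i_at was called. The 3′ minus 5′ signal of the GAPDH control probe sets averaged 2.16 ± 0.65 (SD, n = 8) in newly transcribed, -0.20 ± 0.11 (n = 8) in total and 1.55 ± 0.60 (n = 7) in amplified RNA on the log2 scale. Its part in the differences between kinds of RNA was not tested.

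The order of the 6 groups differed from gene to gene. For Srxn1 (102780_at) it ran, in mean log2 signal, from treated newly transcribed (9.36 ± 0.38, SD) through treated total (8.51 ± 0.14), treated amplified (8.24 ± 0.83), starved newly transcribed (7.45 ± 0.65) and starved total (6.66 ± 0.20) to starved amplified RNA (6.31 ± 0.55). Of these neighbours, the first differed from the second, and the fourth from the fifth, by more than the larger of their SDs. For Hmox1 it ran from treated total (10.88 ± 1.28) through treated newly transcribed, starved total and treated amplified to starved amplified and starved newly transcribed RNA (9.35 ± 0.73), with 1 step, from treated to starved amplified RNA, beyond the spread. Gclm ran from treated newly transcribed (8.41 ± 0.47) to starved total RNA (6.76 ± 0.34), with the step from starved amplified to treated total RNA beyond the spread. Txnrd1 ran from treated newly transcribed (10.19 ± 0.39) to starved amplified RNA (8.45 ± 0.18), with steps beyond the spread below starved newly transcribed and below starved total RNA. No step of Gclc or of either Nqo1 probe set was beyond the spread.

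Among the regulators of the pathway, 10 of the 12 listed genes were measured. With pairs limma called 1 of 10 in newly transcribed RNA and the same gene in total RNA, higher after serum: Maff, a small MAF protein that can pair with NRF2 or BACH1. These fits called 1.74% and 0.483% of all probe sets. Maff rose by 1.25 ± 0.17 in newly transcribed RNA (adjusted p = 0.037) and by 1.40 ± 0.09 in total RNA (adjusted p = 0.012). Without pairs its adjusted p was 0.67 and 0.38, and it was lost without any 1 pair (0.069 to 0.18 and 0.054 to 0.16) and with deposited values (0.2 and 0.31). The fits without 1 pair called 0 to 25 of all probe sets in newly transcribed and 0 to 10 in total RNA. The paired calls of Maff were kept with arrays scaled to 1 median (limma, adjusted p = 0.031 and 0.006). Its relative Mafk differed by 0.53 ± 0.12 (adjusted p = 0.081) and 0.56 ± 0.10 (adjusted p = 0.13) with pairs, which did not pass. Nfe2l2, the gene of NRF2 itself, differed by -0.13 ± 0.20 and -0.23 ± 0.12, and did not pass. Bach1, the competitor, differed by -0.25 ± 0.23 and 0.71 ± 0.20 (adjusted p = 0.3), and the related factors Nfe2l1 by -0.47 ± 0.13 in newly transcribed (adjusted p = 0.11) and Nfe2l3 by -0.11 ± 0.09 in total RNA. Second, dimmer probe sets of Nfe2l1 and Bach1 had the opposite sign in newly transcribed RNA, at 0.36 ± 0.15 (adjusted p = 0.21) and 0.57 ± 0.19 (adjusted p = 0.15), and did not pass. The list's median change was -0.13 in newly transcribed and 0.06 in total RNA.

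Of 46 other antioxidant and detoxification genes, 39 were measured, and their median change was 0.02 for newly transcribed RNA and -0.01 for the total pool. With pairs limma called 1 higher and 2 lower in newly transcribed RNA, where 216 of 12422 probe sets (1.74%) were called. It called 0 in total RNA, where 60 of all probe sets were called and 1333 had an unadjusted p below 0.05. Glrx, a glutaredoxin that removes glutathione from proteins, rose by 0.88 ± 0.15 (adjusted p = 0.046). Mgst1, a microsomal glutathione transferase, fell by 0.93 ± 0.14 (adjusted p = 0.042) and Ephx1, the microsomal epoxide hydrolase, fell by 0.78 ± 0.13 (adjusted p = 0.048). Each of the 3 calls was lost without any 1 pair and with deposited values, and that of Glrx with arrays scaled to 1 median (0.77, adjusted p = 0.095). With that scaling the calls of Mgst1 and Ephx1 were kept (adjusted p = 0.036 for each). The fits without 1 pair called 0 to 25 of all probe sets. Ugdh, which makes UDP-glucuronic acid, was at 0.69 ± 0.25 in newly transcribed RNA and Idh1, an NADPH-making dehydrogenase, at -0.90 ± 0.23, and neither passed. In total RNA Ugdh was at 0.75 ± 0.10 (adjusted p = 0.052) and Glrx at 0.32 ± 0.09, with Gsta4, a glutathione transferase, at -0.43 ± 0.15 and Cbr1, a carbonyl reductase, at -0.33 ± 0.09 at the lower end, none of which passed. In amplified total RNA 0 genes of either list were called, where 0% of all probe sets were.

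Against amplified total RNA, newly transcribed RNA had 3 of 10 regulators higher and 0 lower, and 0 of 39 other antioxidant genes higher and 17 lower, by limma. Of all 12422 probe sets, 1065 were called higher and 1133 lower. With the replicate block, which called 3479 of all probe sets, 6 regulators were higher, and 1 of the other genes was higher and 19 were lower. That block joins same-numbered arrays, and the starved arrays numbered 3 did not deviate together (r = -0.39). With values as deposited, 85 of all probe sets were called. Nfe2l2 was higher by 1.42 ± 0.30 (adjusted p = 0.004) and Mafk by 1.00 ± 0.20 (adjusted p = 0.0033). Gsta4, Mgst1 and Ephx1 were lower, at -2.27 ± 0.36, -2.24 ± 0.34 and -1.90 ± 0.37. The list medians were 0.63 and -0.61 against -0.004 over all probe sets.

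**Figure D4:**
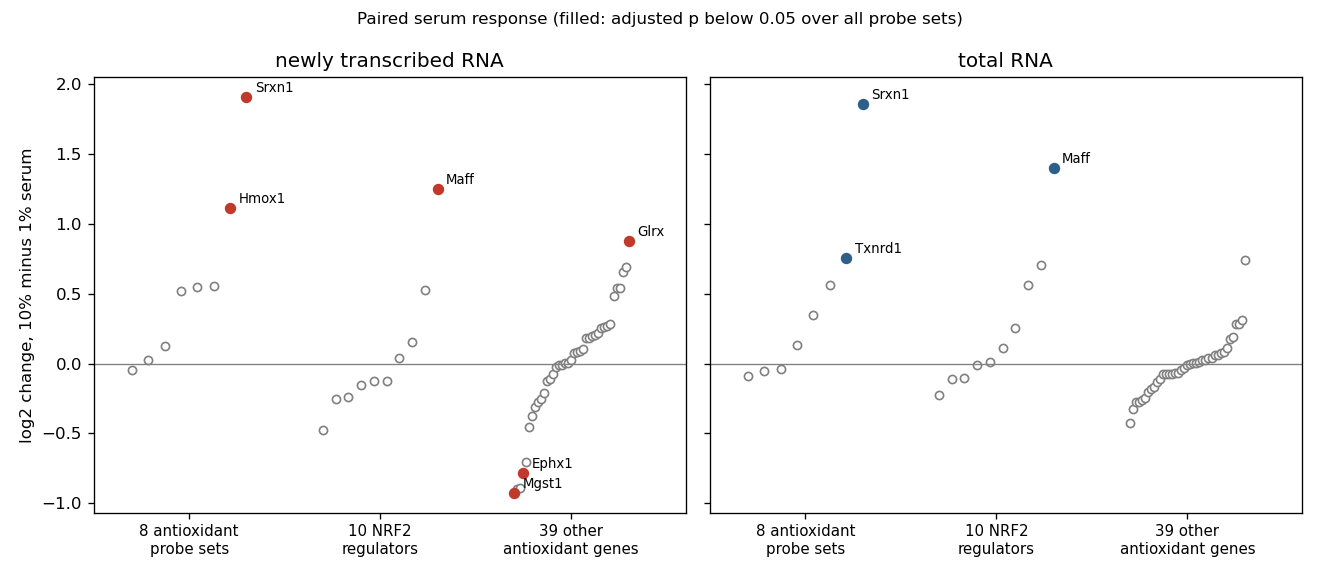
Each point is the paired log2 change (10% minus 1% serum) of 1 of the 8 antioxidant probe sets, 1 of 10 regulators of NRF2 or 1 of 39 other antioxidant genes, sorted within its list, in newly transcribed and in total RNA; filled and named points passed the adjusted threshold. Srxn1 and Maff are filled in both kinds of RNA, and most of the 39 other genes lie near 0, with medians of 0.02 and -0.01.

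The pattern of Srxn1 over the 23 arrays, after the mean of each kind of RNA was taken off, was most like those of Plaur, the urokinase receptor (Pearson r = 0.93), Nr4a1, an orphan nuclear receptor (0.90), Sphk1, a sphingosine kinase (0.88), Fosb, an AP-1 subunit (0.88), and Slc2a1, a glucose transporter (0.87). The pattern of Hmox1 was most like those of Sys1 (0.82), Dmwd (0.81), Fgfr1 (0.79), Maz (0.79) and Nbl1 (0.79). No gene was named for both. Among the members, Srxn1 and Txnrd1 had r = 0.80, Hmox1 and Srxn1 0.55, and Gclc and Hmox1 -0.54. These values are descriptions over 23 arrays that share serum conditions and array numbers.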

How the data were processed

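RNA of primary mouse embryonic fibroblasts was measured on 23 Affymetrix arrays in 6 groups, assigned by sample title. The deposited values are 1 linear signal intensity per probe set and array, for 12488 probe sets, with 42 values at 0; per the labels, RNA was reverse transcribed, linearly amplified and labelled with biotin, and how probes were summarised or arrays scaled was not given in the sources used here. The number of arrays limits the precision.

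Arrays were quantile normalized, 16 was added and log2 taken. The 66 control probe sets were left out. Symbols came from the platform annotation (10833 probe sets with 1 symbol, 396 with several, 1193 not listed), and a list gene was represented by its brightest probe set. The 7 comparisons were fitted with lmFit and eBayes of limma 3.58.1 (R 4.3.3). Two-sided p-values were adjusted by Benjamini and Hochberg's method over the 12422 tested probe sets, and a call is an adjusted p below 0.05. Errors are the SE of the fit unless stated. The script was tested on simulated data.

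The titles do not say what an array number shares. Deviations from group means correlated within same-numbered starved and treated arrays of newly transcribed RNA (0.80, 0.80, 0.76 and 0.70) and total RNA (0.70, 0.23, 0.47 and 0.57), so these were also fitted with the number as a block. Amplified arrays numbered 1 and 2 correlated (0.69 and 0.76) but those numbered 3 did not (-0.47), so their paired changes are not given. Between newly transcribed and amplified arrays the values were 0.37, 0.68 and -0.39 in starved and 0.56, 0.73, 0.71 and 0.69 in treated cells. Between total and amplified arrays they ran from 0.07 to 0.31. Block fits of these 2 comparisons are alternatives only.

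The members and gene lists were chosen with earlier results of these data known. Named list genes are those called in a serum response with or without pairs, and the 2 highest and 2 lowest per list in newly transcribed and total RNA. For Srxn1 and Hmox1 the 5 most correlated genes are named. Alternatives were deposited values, median scaling, pseudocounts of 1 and 64, a minimum mean signal of 20, all arrays in 1 fit, blocks by number or by array cluster, and leaving out each array. Leaving out each pair, and other scalings with pairs, were added after seeing the data.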

Additional observations from a re-analysis of the deposited data

Results flagged for a closer look

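Hmox1 in total RNA had an array far from the other 3 of its group in both serum conditions. On starved array 4 its log2(normalized signal + 16) was 8.749, and on treated array 4 it was 8.955, where the other arrays of these groups lay between 10.70 and 11.59. In each case the gap to the nearest array, divided by the range of the group, was above Dixon's 95% critical value for 4 samples. Of 40 groups of 4 arrays tested over the 8 probe sets, 2 stood out in this way, and chance flags about 1 group in 20. Both arrays carry the number 4. The same arrays were the highest of their groups for Txnrd1, at 725.4 and 1331.7, and for the 12 summed macrophage markers, at 7124 and 7719.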

How the results depend on the processing

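The called members were counted under each alternative, and the cause of a change was not tested. In newly transcribed RNA the serum response called 0 members, but 1 with all arrays in 1 fit, 2 with the replicate block and 2 with the cluster block. Of all 12422 probe sets, these settings called 0, 30, 216 and 45. In total RNA the serum response called 1, but 0 with values as deposited and 2 with the replicate block, against 15, 2 and 60 of all probe sets. With the replicate block, the 2 calls in each kind became 0 with deposited values and 0 with a pseudocount of 1, and 0 to 1 without both arrays of 1 number. Deposited values and a pseudocount of 1 then called 0 of all probe sets. Without 1 number, 0 to 25 of all were called in newly transcribed and 0 to 10 in total RNA. The 2 calls in each kind were kept with arrays scaled to 1 median, where 296 and 69 of all probe sets were called. The block added 1 regulator of NRF2 in newly transcribed and 1 in total RNA, and 3 other antioxidant genes in newly transcribed RNA, where there were 0 without it; it changed no other serum call of a member. Newly transcribed against amplified RNA called 2 members, but 0 with deposited values, 3 with median scaling, 4 with the replicate block, 4 with the cluster block and 2 to 4 without 1 array (4 without treated amplified array 1). Of all probe sets, these settings called 2198, 85, 2159, 3479 and 3909, and 1856 to 2236 without 1 array. The block calls added there were Gclc (adjusted p = 0.025) and Nqo1 94350_f_at (0.017). Amplified against total RNA called 4, but 1 with deposited values, 3 with median scaling (Txnrd1 lost), 3 with a pseudocount of 64 and 3 with the replicate block (Gclc lost in both), and 3 to 4 without 1 array. The counts over all probe sets were 2516, 353, 2494, 2381 and 2554, and 2064 to 2827 without 1 array.

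Deposited values moved the median change of all probe sets to -0.18 (newly transcribed RNA), 0.21 (total) and 0.25 (amplified), and turned the sign of small changes: Nqo1 (94350_f_at and 94351_r_at) to -0.076 and -0.01 in newly transcribed and to 0.077 and 0.082 in total RNA, and Gclc to 0.23 in total and 0.18 in amplified RNA. Differences of the responses, newly transcribed minus total RNA, became -0.35 for Hmox1, -0.54 for Srxn1 and -0.53 for Gclm, where that of all probe sets had a median of -0.45. Those against amplified RNA became -0.66 for Hmox1 and -0.85 for Gclm. Srxn1 also turned to -0.016 (against total RNA) with a pseudocount of 1, and against amplified RNA to 0.18 with a pseudocount of 64 and 0.16 with the cluster block; Gclm turned to -0.092 there with median scaling, and Nqo1 94351_r_at to -0.032 in amplified RNA with the cluster block.

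Without 1 array, changes near 0 ran across it. In newly transcribed RNA Gclc ran from -0.23 to 0.14, and Nqo1 from -0.068 to 0.11 (94350_f_at) and from -0.071 to 0.37 (94351_r_at). In total RNA Gclc ran from -0.11 to 0.044, and Nqo1 from -0.27 to 0.17 and from -0.26 to 0.057. In amplified RNA Nqo1 ran from -0.072 to 0.51 and from -0.21 to 0.51. The difference from total RNA ran from -0.087 to 1.08 for Hmox1, -0.15 to 0.34 for Srxn1 and -0.029 to 0.48 for Gclm, and that from amplified RNA from -0.38 to 0.28 for Srxn1 and -0.091 to 0.42 for Gclm. Srxn1 161090_i_at ran from -0.10 to 0.20 in newly transcribed minus amplified RNA and Nqo1 94351_r_at from -0.22 to 0.068 in amplified minus total RNA. Of all single values recomputed, 828 kept direction and side of the threshold, 68 lost and 15 gained a call, and 53 turned sign. Probe sets below the array median, both of Nqo1 and 161090_i_at of Srxn1, limit what can be read from them.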

Other observations

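Newly transcribed and amplified arrays were split over all probe sets into 2 clusters, a number set in advance. The clusters cut across the serum groups. In newly transcribed RNA the cluster of arrays 1 and 4 had a mean Hmox1 log2 signal of 9.25 and that of arrays 2 and 3 of 10.57, while the serum change of Hmox1 was 1.02 in the first and 1.21 in the second. For Srxn1 (102780_at) the change was 2.21 and 1.61, for Gclm 0.46 and 0.63 and for Txnrd1 0.56 and 0.48. In amplified total RNA, where the second cluster holds 1 starved array, the changes were 1.62 and 1.94 for Srxn1, 0.59 and 0.55 for Hmox1 and 0.55 and 0.98 for Txnrd1. With the cluster as a block, limma called Srxn1 (adjusted p = 0.036) and Hmox1 (adjusted p = 0.036) in newly transcribed RNA, where 45 of 12422 probe sets were called. The clusters were drawn from the same values that were then fitted, so these calls are not independent support.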
